A study of Mus musculus with 39 samples.

Results

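Adventitial and resident fibroblast genes, 10 of the 18194 genes measured on 39 mouse arrays, are described here across tumour-bearing tissue and normal mammary gland. The genes are Pi16, Dpt, Prg4, Pdgfra, Clec3b, Dpp4, Dcn, Lum, Igf1 and Fap. They were chosen by their measured levels in these same arrays, those of the ventral tumours included, and with earlier results of the comparison with normal gland known. Levels in the ventral tumours are therefore given as a description with no test, and the tests against normal gland give sizes and errors rather than independent evidence about the group of genes. Each gene was read from a single probe set, the brightest over the 39 arrays. The unit throughout is log2 expression after RMA, so a difference of 1 is a doubling, and levels of different genes were not compared with each other.

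Breast tissue of genotype SB/Tg/K5Cre/Bcat, called quadruple, was on 19 arrays and came from 15 animals. Triple K5Cre breast, of genotype SB/Tg/k5Cre, was on 8 arrays of 8 animals. Triple Bcat breast, of genotype SB/Tg/Bcat, was on 3 arrays of 2 animals. A breast group labelled bcat +/- with masses had 2 arrays from 2 animals, and 3 ventral tumours labelled Bcat +/- came from 1 animal. Normal mammary gland had 4 arrays from 4 animals, whose labels give the genotypes quadruple (MGQ440), triple K5Cre (MGT627 and MGT635) and triple Bcat (MG-Tbc-139). The glands thus carried the SB and Tg elements as well, and the masses and ventral tumours differ from them by genotype as well as by tissue. The sample names of the masses and the ventral tumours begin with C57, which no other sample name does, so what that mark stands for and these groups cannot be told apart. Sleeping Beauty, named in the title of the series, is a transposon system used for insertional mutagenesis, and K5Cre is by its name a Cre recombinase driven from keratin 5 sequences, which are active in basal epithelium. Strain, sex and age entered no test. Arrays of animals Q648, Q190, Q2154 and Tbc-266, and the ventral tumours, share their animal, so arrays outnumber animals in those groups.

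Fibroblasts of most organs fall into a set that lies around vessels and in connective tissue sheaths, the adventitial fibroblasts, and sets that reside within the tissue. Pi16, Dpp4, Dpt and Clec3b are widely used as markers of the adventitial set in mice, while Pdgfra, Dcn and Lum are found in fibroblasts in general and Fap is best known from activated fibroblasts around tumours. In the mammary gland these cells lie between the epithelial ducts and the surrounding fat pad.

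The label of the genes was set against lists of other genes. The epithelial list, whose brightest genes included the keratin genes Krt8 and Krt14, had mean levels of 10.21 to 12.01 in quadruple arrays, 10.29 to 11.08 in ventral tumours and 10.88 to 11.50 in normal gland, so every group held epithelial RNA. Normal gland was highest in fat genes and, on average, in muscle genes. The mean of 14 adipocyte genes was 5.40 to 11.40 in quadruple, 5.25 to 8.45 in triple K5Cre and 5.99 to 7.86 in triple Bcat. It was 5.65 to 6.31 in masses, 6.0 to 6.64 in ventral tumours and 11.41 to 11.78 in normal gland. The mean of 14 skeletal muscle genes was 4.14 to 10.72 in quadruple arrays and 4.10 to 11.21 in triple K5Cre arrays. It was 4.36 to 4.73 in triple Bcat arrays and 4.67 to 4.85 in masses. Ventral tumours were at 4.65 to 8.42 and normal gland at 10.23 to 11.90, so single breast arrays reached the gland range. Array medians lay between 5.10 and 5.27. The arrays quadruple 5, triple K5Cre 2 and normal gland 3 were low in Xist, an RNA of the inactive X chromosome. The files carry no detection calls, so low levels were not separated from background.

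Of the 10 genes, 5 matched the RefSeq promoter table of GRCm38.p6, and the 250 bases before the annotated start are shown for Dpt, which had the largest fitted difference from normal gland of the 10 in quadruple and triple K5Cre breast, and for Igf1, which varied most closely with Dpt and Lum. Capitals mark a CTTTGA match and, nearer the start, a match to TGANTCA, a motif that reads the same on both strands. Dpt held none of the motifs searched.
Dpt, chr1:164796413-164796662, plus strand: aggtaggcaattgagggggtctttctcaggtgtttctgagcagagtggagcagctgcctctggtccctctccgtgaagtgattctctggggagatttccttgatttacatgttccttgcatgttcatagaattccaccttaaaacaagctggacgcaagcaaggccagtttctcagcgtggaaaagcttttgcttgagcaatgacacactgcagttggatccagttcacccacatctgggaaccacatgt
Igf1, chr10:87860861-87861110, plus strand: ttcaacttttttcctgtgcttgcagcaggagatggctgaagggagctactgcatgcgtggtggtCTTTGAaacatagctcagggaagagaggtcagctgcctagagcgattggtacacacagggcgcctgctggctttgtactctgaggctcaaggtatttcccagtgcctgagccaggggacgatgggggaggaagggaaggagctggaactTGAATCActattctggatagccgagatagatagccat

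The Igf1 window lies inside the span annotated for the gene (chr10:87858265-87937047), which other transcripts start further upstream. The motifs searched on both strands were TATAAA, present in 12.4% of 32851 promoters of the same length, then TGANTCA, present in 6.75%, and CTTTGA, present in 13.8%. The matches did not overlap. TATAAA was found in 1 of the 5 matched genes, Dpp4, at positions -227 to -222 from the start. The matches in Igf1 lie at positions -186 to -181 and -37 to -31. Each motif was present in 1 of the 5 genes.

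Pi16 and Prg4 were highest in the 3 ventral tumours, and how many of all genes were so was not counted. Pi16, a secreted protein of the CRISP family whose transcript marks adventitial fibroblasts, was at 11.46, 11.39 and 11 in the ventral tumours, against 9.39, 9.51, 9.40 and 10.22 in normal gland. No other array reached the lowest ventral tumour, and the nearest was the array masses 1 at 10.23. Prg4, the lubricin proteoglycan of joint surfaces, was at 9.51, 10.04 and 9.34 in the ventral tumours, against 7.75, 4.76, 4.39 and 5.07 in normal gland. The nearest other array for Prg4 was triple Bcat 3 at 8.70. The ventral tumours exceeded normal gland by 1.66 in Pi16 and 4.14 in Prg4 in the difference of group means. A dimmer probe set of Pi16 was also above every other array in the 3 tumours, with a mean of 5.01 in ventral tumours, 3.61 in quadruple arrays and 3.79 in normal gland. Prg4 has no second probe set on the array.

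**Figure D1:**
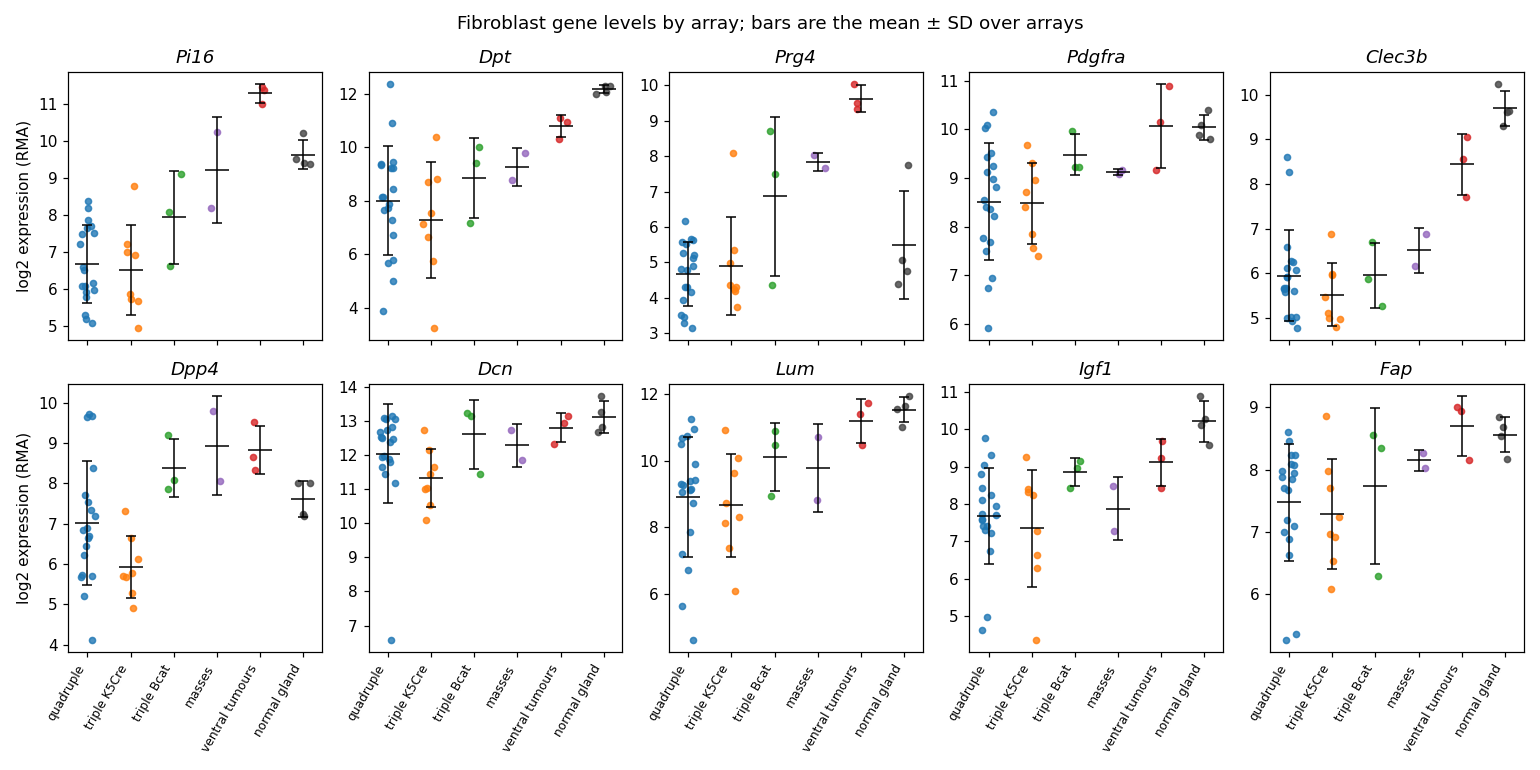
Levels of the 10 fibroblast genes on the log2 scale, a point per array in each of 6 groups, with black bars for the mean ± SD over arrays. Pi16 and Prg4 are highest in the 3 ventral tumours (11 to 11.46 and 9.34 to 10.04), while Dpt and Clec3b are highest on average in normal gland.

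The other genes did not follow that order in the ventral tumours. Dpt, the matrix protein dermatopontin, was at 11.09, 10.95 and 10.32 in ventral tumours, against 12.28, 12.01, 12.07 and 12.31 in normal gland. All 3 tumours were below all 4 glands in Dpt, and how many of all genes were so was not counted. Clec3b, the plasminogen-binding protein tetranectin, was at 9.06, 8.57 and 7.70 in ventral tumours, against 9.62, 9.30, 9.64 and 10.24 in normal gland. Both genes were nevertheless above most breast arrays: 3 of 32 breast arrays exceeded the lowest ventral tumour in Dpt and 2 of 32 in Clec3b. Dpp4, the membrane peptidase CD26, was at 9.51, 8.65 and 8.34 in ventral tumours, against 8.0, 7.20, 7.23 and 8.0 in normal gland. Its 3 other probe sets did not all share that direction: the difference of means was 0.63, 0.45 and -0.31.

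For the proteoglycans, receptor, growth factor and peptidase the ventral tumours and the glands overlapped. The difference of means, ventral tumours minus normal gland, was -0.32 for Dcn and -0.33 for Lum, both small leucine-rich proteoglycans that bind collagen fibrils. It was 0.03 for Pdgfra, the alpha receptor for platelet-derived growth factors, 0.14 for Fap, a membrane peptidase related to Dpp4, and -1.09 for the growth factor gene Igf1. The same difference was 0.99 and 0.28 in dimmer probe sets of Pdgfra and 0.03 in that of Dcn. In the other Igf1 probe sets it was -1.06, -1.79 and -1.62. Over all 10 genes the mean level was 9.92, 10.41 and 9.94 in the ventral tumours, against 10.17, 9.59, 9.46 and 10.01 in normal gland. The adipocyte means of the ventral tumours were 6.0, 6.64 and 6.39, all below the lowest gland. The part of fat content in their levels of the 10 genes was not tested. In bulk tissue, fewer cells of a type and less RNA per cell cannot be told apart, here or in any comparison below. With all 3 tumours from 1 animal, no spread between animals is available.

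Lists of other cell types were also read in the ventral tumours, and their part in these levels was not tested. The mean of 10 macrophage genes was 9.57 to 10.53 in ventral tumours and 8.79 to 9.94 in normal gland. It reached 10.56 in a triple Bcat array. The mean of 7 mesothelial genes was 4.98 to 5.10 in ventral tumours, against 3.56 to 5.02 in quadruple arrays and 3.88 to 4.56 in normal gland. Of that list the brightest gene, Bnc1, was at 8.49 to 9.74 in ventral tumours and 3.87 to 6.60 in normal gland. It was also at 9.09 to 9.80 in masses and reached 9.78 in a quadruple array. The next, Upk1b, was at 5.59 to 6.31 in ventral tumours and 5.30 to 5.49 in normal gland, but reached 6.55 in triple K5Cre. The mean of 10 tendon and cartilage genes, tissues in which Prg4 is well known, was 4.79 to 5.04 in ventral tumours and 4.40 to 4.74 in normal gland. This list mean reached 5.49 in a triple K5Cre array. The brightest gene of this list, Cilp2, was at 5.50 to 6.19 in ventral tumours and 5.69 to 6.12 in normal gland. The next, Thbs4, was at 7.36 to 8.85 in ventral tumours, against 3.83 to 7.48 in quadruple arrays and 5.28 to 6.57 in normal gland. A triple K5Cre array reached 8.25 in Thbs4. A list of 11 fibrillar collagen and matrix genes had means of 11.24 to 12.59 in ventral tumours and 10.04 to 10.86 in normal gland. Its means were 11.45 to 11.92 in masses and 11.28 to 11.95 in triple Bcat, and reached 12.47 in a quadruple array.

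By group mean, the masses were the breast group nearest the ventral tumours for Prg4, Pi16, Dpp4, Dpt, Clec3b and Fap. For Pdgfra, Dcn, Lum and Igf1 the nearest was triple Bcat. Pi16 was at 10.23 and 8.19 in masses, on either side of the glands, and at 9.12 in the array triple Bcat 3. Prg4 was at 7.66 and 8.02 in masses, against 7.75, 4.76, 4.39 and 5.07 in normal gland. The arrays triple K5Cre 7 and triple Bcat 3 reached 8.09 and 8.70. Dpt was at 9.78 and 8.78 and Clec3b at 6.87 and 6.16 in masses, all below every gland. How many of all genes were below every gland in masses was not counted. The mean difference, masses minus normal gland, was -3.19 for Clec3b, -2.89 for Dpt, -2.33 for Igf1 and 1.32 for Dpp4. These 2 arrays were not tested.

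In quadruple breast, 6 of the 10 fibroblast genes were lower than in normal gland and none was higher, in limma's test over all genes. Over all 18194 genes, 9.66% were called lower in that comparison at a Benjamini-Hochberg adjusted p under 0.05. The median difference of the 10 genes was -2.08, against 0.0079 over all genes. The 6 genes were Clec3b, Pi16, Dpt, Igf1, Lum and Pdgfra.

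Clec3b ran from 4.78 through a median of 5.66 to 8.61 in 19 quadruple arrays, against 9.62, 9.30, 9.64 and 10.24 in normal gland. The fitted difference was -3.75 (SE 0.49, adjusted p = 1.537e-06, limma), with all 19 arrays below the lowest gland. How many of all genes separated from the glands in quadruple breast was not counted, for this gene or those below. Pi16 ran from 5.07 through 6.52 to 8.38 in quadruple arrays, again with all 19 below the lowest gland (9.39), and differed by -2.96 (SE 0.56, adjusted p = 0.0002316, limma). Dpt had the largest fitted difference of the 10, -4.05 (SE 1.01, adjusted p = 0.004509, limma), and ran from 3.88 through 8.13 to 12.37. Its 18 arrays below the glands leave out quadruple 2 (animal Q260), which at 12.37 was the highest of all 39 arrays and whose adipocyte mean of 11.40 was the highest of any breast array.

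Igf1, Lum and Pdgfra were lower by smaller amounts. Igf1 ran from 4.63 through 7.70 to 9.76 in quadruple arrays, against 10.28, 10.88, 9.58 and 10.11 in normal gland, with a fitted difference of -2.55 (SE 0.65, adjusted p = 0.005194, limma). The other 3 Igf1 probe sets differed by -2.48 to -2.56 and were also called. Lum ran from 4.62 through 9.26 to 11.25, against 11.93, 11.55, 11.01 and 11.65 in normal gland, with a difference of -2.61 (SE 0.84, adjusted p = 0.02957, limma). Pdgfra ran from 5.92 through 8.55 to 10.35, against 10.08, 9.80, 9.89 and 10.39 in normal gland, with a difference of -1.61 (SE 0.53, adjusted p = 0.03498, limma) and 16 of 19 arrays below the lowest gland. Leaving out any of the 4 gland arrays ended the calls of Lum (adjusted p = 0.06963 to 0.08653) and Pdgfra (0.06283 to 0.1132). The 2 dim probe sets of Pdgfra (differences -0.28 and -0.35) and that of Pi16 (-0.18, adjusted p = 0.3748) were not called.

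The remaining 4 genes did not pass in quadruple breast. Fap stood at -1.10 (SE 0.46, adjusted p = 0.1083, limma) and Dcn stood at -1.19 (SE 0.62, adjusted p = 0.2122). Prg4 was at -0.86 (interval of 2 SE from -2.13 to 0.40), with levels of 3.15 to 6.17 in quadruple arrays that lie around the array medians, and without normal gland 1, the highest gland, it was at -0.16. Dpp4 was at -0.81 (interval from -2.07 to 0.46), with 12 of 19 arrays below the lowest gland and 4 above the highest. The dimmest Dpp4 probe set differed by -1.35 (SE 0.36, adjusted p = 0.006973, limma). The other Dpp4 sets, at 0.06 (adjusted p = 0.919, limma) and -1.37 (adjusted p = 0.1646), were not called. The choice of probe set thus decided the Dpp4 call.

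**Figure D2:**
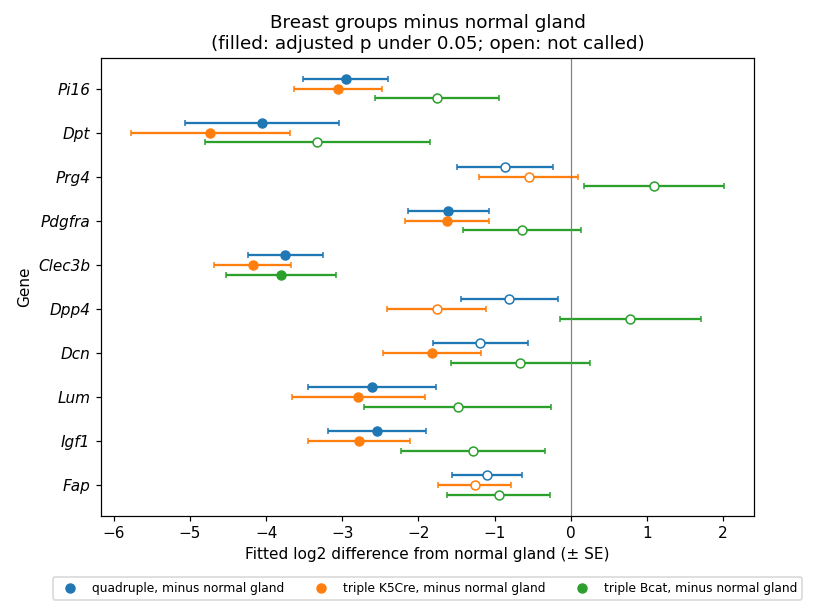
Fitted log2 differences of 3 breast groups from normal gland with their SE, for the 10 fibroblast genes; filled points were called at an adjusted p under 0.05. All 3 comparisons use the same 4 gland arrays. Clec3b is filled in all 3, at -3.75, -4.18 and -3.80.

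In triple K5Cre breast, 7 of the 10 genes were lower than in normal gland and none was higher, where 9.79% of all genes were called lower. Clec3b differed by -4.18 (SE 0.51, adjusted p = 3.92e-07, limma), with levels of 4.80 to 6.89 and a median of 5.28 over 8 arrays. Dpt differed by -4.73 (SE 1.05, adjusted p = 0.001279), with levels of 3.25 to 10.37 and a median of 7.34. Pi16 was at -3.06, Lum at -2.79, Igf1 at -2.78 and Pdgfra at -1.63, with adjusted p of 0.0002089, 0.02212, 0.002939 and 0.03614. For those 6 genes all 8 arrays lay below the lowest gland, and how many of all genes did so was not counted. Dcn was the gene called here and not in quadruple breast, at -1.82 (SE 0.64, adjusted p = 0.04564, limma), which does not show that the 2 groups differ. Dpp4 (-1.76, adjusted p = 0.05807) and Fap (-1.26, adjusted p = 0.06565) missed the threshold, and Prg4 was at -0.55 (adjusted p = 0.6301), or 0.08 without normal gland 1. Of the 3 other Dpp4 probe sets, 2 were called lower, at -1.75 (adjusted p = 0.0007599, limma) and -2.48 (adjusted p = 0.008877), and the remaining set was at -0.20, so the Dpp4 call rests on the probe set here too.

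Leaving out any gland array ended the calls of Dcn (adjusted p = 0.06069 to 0.1274) and Pdgfra (0.05487 to 0.1158), and leaving out normal gland 1, 3 or 4 ended that of Lum (0.05579 to 0.06085). A pair of animals gave both tissues. In T627 the breast array differed from the gland by -4.17 in Clec3b, -4.52 in Dpt and -2.48 in Pi16, and in T635 the differences were -4.30, -3.60 and -3.22. Of the 10 genes, Prg4 was the exception to a lower breast level, at 0.58 in T627 and -0.89 in T635. In the fit of these 2 animals as pairs, none of the 10 genes and 0 of all genes were called.

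In triple Bcat breast, Clec3b was the 1 gene of the 10 called lower, where 5.38% of all genes were. Clec3b was at 5.26, 5.88 and 6.69 in triple Bcat arrays, against 9.62, 9.30, 9.64 and 10.24 in normal gland, a difference of -3.80 (SE 0.72, adjusted p = 0.001074, limma). Dpt (-3.33, adjusted p = 0.1715) and Pi16 (-1.76, adjusted p = 0.1927) had all 3 arrays below the glands and did not pass. The same held for Lum (-1.48, adjusted p = 0.5218, limma) and Igf1 (-1.29, adjusted p = 0.4554). How many of all genes had all 3 arrays below the glands was not counted. Prg4 was at 4.36, 7.51 and 8.70 in triple Bcat arrays and Dpp4 at 9.21, 8.08 and 7.87, with fitted differences of 1.09 (interval of 2 SE from -0.75 to 2.94) and 0.78 (from -1.06 to 2.63). The higher Prg4 levels were those of animal Tbc-266, which gave 2 of the 3 arrays. Without that animal the Prg4 difference turned to -1.15, and without the array triple Bcat 1 it was 2.59.

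Between breast genotypes none of the 10 genes was called. Quadruple against triple K5Cre breast, where 0.0% of all genes were called, gave adjusted p of 0.995 to 0.9991 for the 10 genes, with 0 of them and 811 of all genes at an unadjusted p under 0.05. The largest difference was Dpp4 at 0.96 (interval of 2 SE from -0.03 to 1.94), and Dpt was at 0.68 (from -0.90 to 2.26), so differences of those sizes were not resolved. Quadruple against triple Bcat breast, where 0.033% of all genes were called, gave Prg4 at -1.96 (from -3.52 to -0.39) and Dpp4 at -1.59 (from -3.15 to -0.02), with a lowest adjusted p of 0.5834. Of the 10 genes, 9 were lower in quadruple than in triple Bcat by the fitted value, with a median of -1.04. Over all genes 47.5% were lower, with a median of 0.016. Lower values were not particular to the 10: 11 of 11 fibrillar collagen and matrix genes had them (median -1.20), but 0 of 14 skeletal muscle genes. Without animal Tbc-266, 5 of the 9 fibroblast genes (Pi16, Dpt, Prg4, Dcn and Fap) turned positive.

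Other genes of these cells were counted in the same comparisons with normal gland. Of all genes, 9.66% were called lower in quadruple, 9.79% in triple K5Cre and 5.38% in triple Bcat breast. Of 14 other adventitial fibroblast genes, 7 fell in quadruple breast, 7 in triple K5Cre breast and 2 in triple Bcat breast, and none rose. Pcolce2, which enhances procollagen processing, averaged 5.57 ± 1.21 in quadruple arrays and 9.67 ± 0.40 in normal gland (SD; difference -4.09, SE 0.63). Efemp1, an elastic fibre-associated fibulin, differed by -3.71 (SE 1.05, adjusted p = 0.0126, limma). Of 16 other resident fibroblast genes, 8, 7 and 4 fell in these groups, led in quadruple breast by the methyltransferase gene Inmt (-4.71, SE 0.63) and the alcohol dehydrogenase gene Adh1 (-4.02, SE 0.72).

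Proteoglycans related to Dcn and Lum were also among the genes that fell, while no collagen gene of the list was. Of 10 other small leucine-rich proteoglycans, 5, 6 and 3 fell in quadruple, triple K5Cre and triple Bcat breast, such as Ogn (-4.07, SE 0.91) and Prelp (-2.32, SE 0.66) in quadruple breast. Of 11 fibrillar collagen and matrix genes, none fell in any of the 3 comparisons, and Col12a1, a collagen that binds along fibrils, rose in triple K5Cre (2.24, SE 0.77) and triple Bcat breast (3.77, SE 1.08). Of 14 activated fibroblast genes none fell, and the risers were the activin subunit gene Inhba in triple K5Cre breast (1.65, SE 0.54) and the BMP antagonist gene Grem1 in triple Bcat breast (4.07, SE 1.16). The list medians in quadruple breast were -1.50 for other adventitial genes, -1.78 for other resident genes, -0.17 for collagens and 0.31 for activated fibroblast genes.

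Partners of Igf1, Pdgfra, Dpp4 and Fap were counted the same way. In quadruple breast, where 9.66% of all genes were called lower, 2 of 14 other IGF axis genes fell. They were the binding protein gene Igfbp6 (-3.36, SE 0.62) and the growth hormone receptor gene Ghr (-3.11, SE 0.52). The binding protein gene Igfbp2 rose (2.26, SE 0.71). The same 3 genes were called in triple K5Cre breast, at -3.61, -3.20 and 2.09. None of 5 other PDGF ligand and receptor genes passed in any of the 3 comparisons. Of 7 other prolyl peptidase genes none passed in quadruple or triple Bcat breast. In triple K5Cre breast, where 9.79% of all genes were called lower, Dpp7 fell (-0.87, SE 0.29) and Prep rose (0.73, SE 0.23). These counts were not tested against those shares.

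The falls stood beside larger falls of fat and muscle genes. In quadruple breast, 9.66% of all genes were called lower. There 13 of 14 adipocyte genes fell (median -4.12) and 14 of 14 skeletal muscle genes fell (median -5.79). Of 12 endothelial genes, 8 fell in quadruple breast (median -1.01), 2 in triple K5Cre breast and 0 in triple Bcat breast. The share of all genes called lower was 9.79% in triple K5Cre and 5.38% in triple Bcat breast. With the adipocyte list mean as a covariate, 0 of the 10 fibroblast genes were called in each of the 3 comparisons, and the share of all genes called lower was 0.39% in quadruple, 0.341% in triple K5Cre and 0.022% in triple Bcat breast. The loss of calls thus ran across the array. In quadruple breast that fit put Clec3b at -1.22 (adjusted p = 0.1822), Pi16 at -0.94 (adjusted p = 0.7661) and Dpt at 0.99 (adjusted p = 0.8104). No breast array had an adipocyte mean as high as the lowest gland, 11.40 in quadruple 2 against 11.41, so differences in that fit are extrapolated. The part of fat and muscle content in these differences was not tested further.

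**Figure D3:**
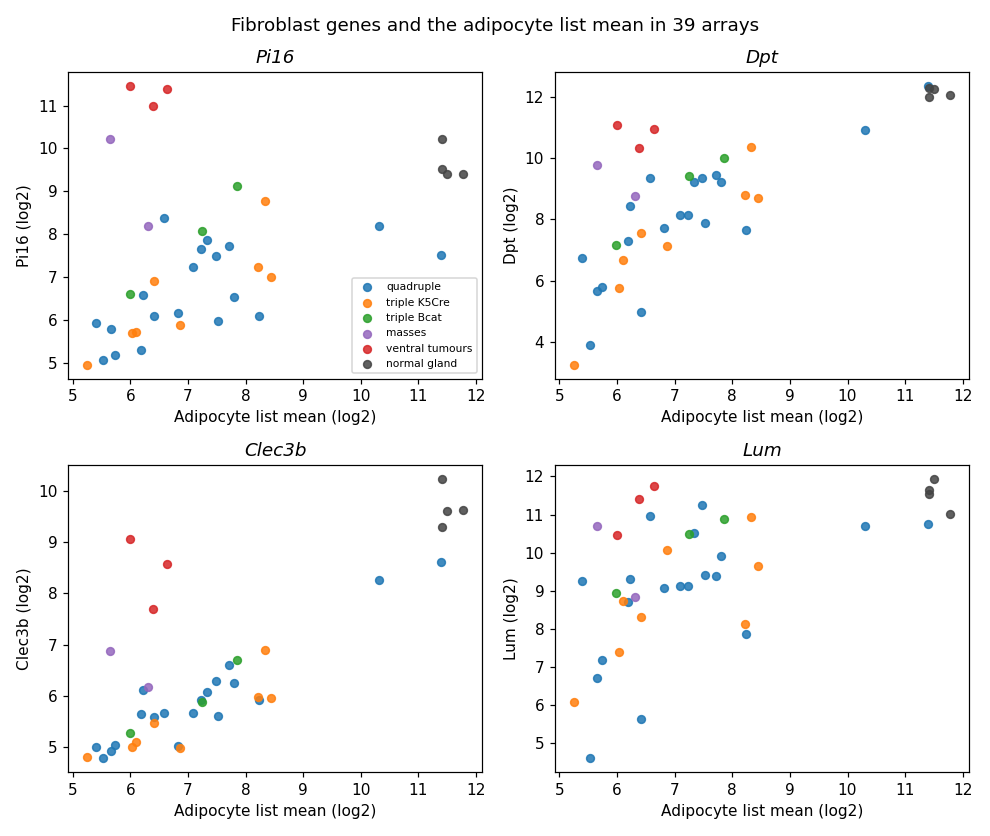
Pi16, Dpt, Clec3b and Lum (vertical, log2) against the mean of 14 adipocyte genes (horizontal, log2), a point per array, coloured by group. The 4 glands lie at 11.41 to 11.78 on the horizontal axis and the 3 ventral tumours at 6.0 to 6.64, where their Pi16 of 11 to 11.46 is above every other array.

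Among quadruple animals, levels were set against the adipocyte mean and the collagen and matrix mean, 20 relations over 15 animals with arrays of an animal averaged. With the adipocyte mean, Pearson's r was 0.92 for Clec3b (rho 0.83, permutation p = 5e-05, adjusted p = 0.0005) and 0.83 for Dpt (rho 0.76, p = 0.00016, adjusted p = 0.0008). Igf1 (0.67, rho 0.60) and Pi16 (0.55, rho 0.52) also passed on r, with adjusted permutation p of 0.0221 and 0.0428, though Pi16 did not pass on rho (adjusted p = 0.0812). Without Q260 and Q535, the animals farthest from the median, r was 0.70 for Clec3b (adjusted permutation p = 0.0568), 0.62 for Dpt (adjusted p = 0.0753), 0.48 for Pi16 and 0.40 for Igf1, and none of the 10 passed. The calls thus rest on those animals, while a relation of that size among the others was not resolved. Prg4 had an r of 0.20 and Dcn of 0.25.

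With the collagen and matrix mean, 8 of 10 genes passed, led by Fap (r 0.87, rho 0.90, adjusted permutation p = 0.0005) and Lum (r 0.86, rho 0.82, adjusted p = 0.000533). Pdgfra had an r of 0.81 and Igf1 of 0.76, while Clec3b (0.25) and Dpp4 (0.37) did not pass. Without Q2164 and Q545, Lum (0.77) and Fap (0.79) still passed, each at an adjusted permutation p of 0.0215, and the other 6 did not. Clec3b was thus the gene with the highest r to fat genes and the lowest to collagen genes, a difference between relations that was not itself tested.

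**Figure D4:**
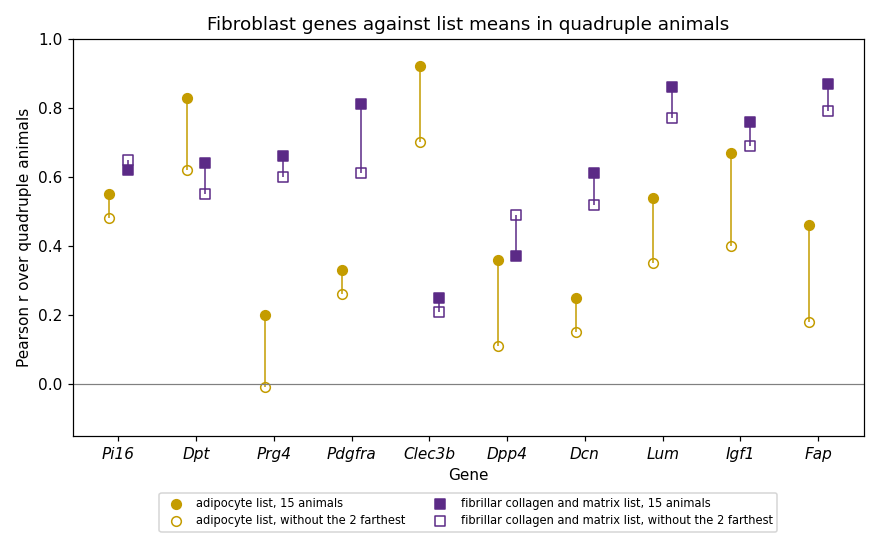
Pearson r of each fibroblast gene with the adipocyte list mean (circles) and the collagen and matrix list mean (squares) over 15 quadruple animals; open symbols leave out the 2 animals farthest from the median. For fat genes Clec3b is at 0.92 (0.70 open), and for collagen genes Lum and Fap are at 0.86 and 0.87 (0.77 and 0.79 open).

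How the 10 genes varied with each other was looked at after their values were seen. Over the 45 pairs in 15 quadruple animals, r ran from 0.09 to 0.95 with a median of 0.57. Lum and Igf1 had an r of 0.95 (rho 0.90), Dpt and Igf1 0.94 (rho 0.90) and Lum and Fap 0.94 (rho 0.84), each at an adjusted permutation p of 0.000112. In all, 22 pairs passed on r and 18 on rho, and a second set of random draws gave 21 on r, since Prg4 with Lum lay at the threshold. Of the pairs that passed on r, 12 also did so without the 2 animals farthest from the median of the first gene. Prg4 and Dpp4 had at most 1 of their 9 pairs passing on r, and none without those animals. Dcn had 3 of 9 passing on r, but none on rho and none without those animals.

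Neighbours on the chromosome were not the closest pairs. Dcn and Lum lie side by side on chromosome 10 with 0 coding genes between them, at chr10:97479500-97518163 and chr10:97565501-97572703, and had an r of 0.55 (rho 0.55, adjusted permutation p = 0.0791). Dpp4 and Fap lie on chromosome 2 with 1 coding gene between them, Gcg, and had an r of 0.47 (rho 0.43, adjusted permutation p = 0.101). The array quadruple 3 (animal Q2164) weighs on such values: its Dcn was 6.58, while the next lowest of the 39 arrays, triple K5Cre 2, was at 10.10. It was also lowest in Pdgfra (5.92), in Fap (5.27) and in the collagen mean (7.90), but its Pi16 of 6.09, Clec3b of 5.59 and Dpp4 of 6.90 lay within the range of the other quadruple arrays.

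Arrays from the same animal differed by amounts that depended on the animal. The 3 arrays of Q648 had Dpt at 5.66, 10.92 and 8.14, a range of 5.27 against an SD of 2.04 over the 15 quadruple animals. Those arrays had adipocyte means of 5.66, 10.31 and 7.09 in the same order, and Clec3b at 4.92, 8.27 and 5.66. The 2 arrays of Q190 had Dpt at 9.34 and 9.24, a range of 0.10. Over the 10 genes the median range was 2.40 in Q648, 0.61 in Q2154 and 0.35 in Q190. Dpp4 in Q648 ran against Dpt, at 9.67, 6.70 and 8.37, and was 9.65 and 9.72 in Q190, which with the first Q648 array are the 3 highest quadruple values.

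**Figure D5:**
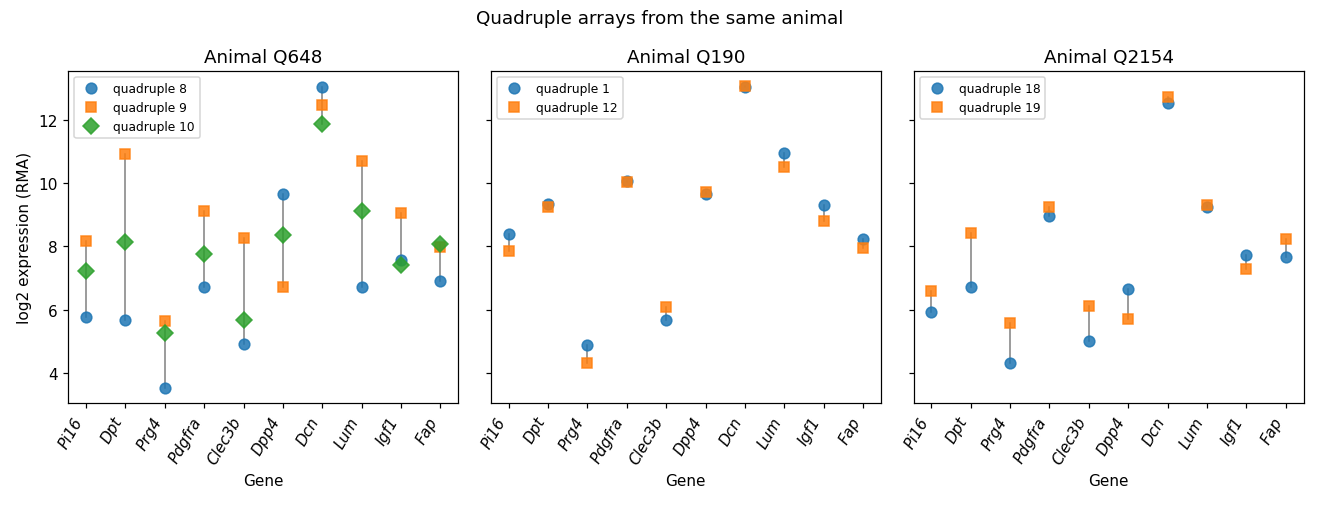
Levels of the 10 fibroblast genes (log2) in quadruple arrays from animals Q648, Q190 and Q2154, a symbol per array with grey lines joining the lowest and highest. Dpt spans 5.27 in Q648 and 0.10 in Q190.

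The genes most like the 10 were ranked by Pearson r with the mean of the 10 over 32 values, each the mean of an animal's arrays in a tissue. They were Htra3 (r 0.95), Ccl11, Igfbp6 and Nid1 (0.94 each), and Svep1, Ccdc80, Dennd5a and Pde8a (0.93 each). By single gene, the nearest was Lrrn4cl for Pi16 (0.91), Htra3 for Dpt (0.96), Nova1 for Clec3b (0.95), Prrx1 for Pdgfra (0.88), Col15a1 for Fap (0.93) and Abca9 for Lum (0.93). Lower values were reached for Prg4 with Lgmn (0.81), Dcn with Cyria (0.83) and Dpp4 with Gata2 (0.85). Lum was nearest to Igf1 (0.93). The 32 values mix groups and tissues, so these likenesses include the differences between normal gland and breast.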

How the data were processed

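RNA of each tissue sample was hybridised to 1 Affymetrix array. The log2 values of 45101 probe sets on 39 arrays were deposited after RMA, which corrects background and normalizes between arrays, per the submitters' processing notes (RMA version not given in the sources). Array number, not depth, limits precision. The 10 genes, the gene lists and the tests were chosen with earlier results of these data known. Probe sets took their gene from the platform annotation, updated through a RefSeq table of GRCm38.p6: 34958 carried 1 gene, 932 several and 9211 none here. Each of 18194 genes was read from its brightest probe set, using cross-hybridising sets only for 100 genes with no other.

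All arrays entered 1 limma fit (lmFit, eBayes with trend) with a mean per group and the animal as a random block (duplicateCorrelation, 0.329), so fitted differences need not equal differences of means. The call threshold was an adjusted p under 0.05 (Benjamini-Hochberg, over 18194 genes). The comparisons with normal gland share its 4 arrays, and p-values measure the spread between these samples. Named genes were the 10 in every comparison, up to 2 rises and 2 falls per related list, the 2 brightest genes of a cell type list, and the genes most like the 10. Correlations used 100000 permutations, 2-sided. Alternatives were other blocks, filters, normalizations, weights, probe sets, covariates and arrays left out; the fit without the quadruple array lowest in Dcn was chosen after seeing the data. The fit was tested on simulated data. Fits ran in limma 3.58.1 (R 4.3.3) and the rest in Python 3.11.15 with scipy 1.17.1, numpy 2.4.6, pandas 2.3.3 and matplotlib 3.10.9.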

Additional observations from a re-analysis of the deposited data

Results flagged for a closer look

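Single arrays that stood far from the rest of their group were sought in 20 combinations of gene and group with 4 to 10 arrays, of which chance alone flags about 1 in 20, and 2 were found. The triple K5Cre array 7 (animal T852) had Prg4 at 8.09, with the next highest of the 8 arrays at 5.34. It also had the highest Pi16 (8.77), Dpt (10.37) and Fap (8.86) of its group, a skeletal muscle mean of 11.21 and a collagen and matrix mean of 12.08. Normal gland 4 (animal T635) had Pi16 at 10.22, with the next highest of the 4 glands at 9.51, and it was also the highest gland in Clec3b, at 10.24.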

How the results depend on the processing

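Over the 10 genes in the 5 comparisons, 718 values under alternatives kept their direction and their side of the threshold, 63 lost the call, 19 gained it and 70 changed sign, 12 of those from a called value and 58 from an uncalled one. The covariates moved most: with the adipocyte mean, and with the adipocyte and muscle means, 0 genes were called in quadruple, triple K5Cre and triple Bcat breast against normal gland. Under these 2 fits, in that order, signs turned in quadruple breast for Dpt (0.99 and 1.07), Lum (0.43 and 0.72), Prg4 (0.63 and 0.76) and Fap (0.33 and 0.42) and, with both covariates, Pdgfra (0.18) and Igf1 (0.22). In triple K5Cre breast they turned for Dpt (0.61 and 0.70), Lum (0.43 and 0.77), Prg4 (1.04 and 1.18) and Fap (0.26 and 0.36) and, with both, Pdgfra (0.30) and Igf1 (0.18). In triple Bcat breast they turned for Pi16 (0.39 and 0.72), Dpt (2.04 and 2.14), Pdgfra (0.82 and 1.38), Dcn (0.26 and 0.22), Lum (1.75 and 2.14), Igf1 (1.30 and 1.76) and Fap (0.58 and 0.69). Between genotypes they turned for Pi16 (-0.02051 and -0.05656), Pdgfra (-0.06008 and -0.1178) and Lum (-0.00293 and -0.04652) in quadruple against triple K5Cre breast, and for Clec3b (-0.1105 and -0.1077) in quadruple against triple Bcat breast. Other probe sets turned Dcn (0.02699) and Dpp4 (0.05969) in quadruple breast against normal gland, and Dcn (0.2352), Dpp4 (-0.3784), Pdgfra (0.379 and 0.5437) and Pi16 (0.08375) in triple Bcat breast, where the mean of all probe sets turned Pdgfra (0.09216). Without animal Tbc-266 signs turned for Prg4 in triple Bcat breast against normal gland (-1.15) and, in quadruple against triple Bcat breast, for Pi16 (0.008524), Dpt (0.82), Prg4 (0.29), Dcn (0.545) and Fap (1.15). Differences near 0 turned for Pdgfra in quadruple against triple K5Cre breast with arrays averaged per animal (-0.03177), array weights (-0.006218), another probe set (-0.02435) and without the arrays low in Xist (-0.1164), and for Prg4 with array weights (0.03336). In quadruple against triple Bcat breast Clec3b turned with no animal block (-0.003229) and with array weights (-0.1449), and Fap with averaged arrays (0.01301). Leaving out 1 array in turn gave Prg4 -0.9909 to 0.08306 in triple K5Cre and Dcn -0.8554 to 0.04068 in triple Bcat breast against normal gland, and Clec3b -0.36 to 0.36 and Fap -1.01 to 0.12 in quadruple against triple Bcat breast. Without the 2 farthest animals, Prg4 with the adipocyte mean had an r of -0.01. In triple K5Cre breast, 4 genes were called without the arrays low in Xist, 4 to 5 without each gland array in turn, and 0 in the paired fit of T627 and T635, which has few arrays. In triple Bcat breast, 3 were called in a fit of the 2 groups alone and 5 with array weights, 4 lower and 1 (Prg4) higher. Quadruple against triple Bcat breast gave 3, all lower, with array weights. The cause of these changes was not tested. Quadruple breast had 4 to 8 called genes under every other alternative run, the fit without the array lowest in Dcn included. With no detection calls, low levels such as those of Prg4 may be background.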
